A study of Mus musculus with 12 samples.

Results

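Mammary tumour organoids of MMTV-Neu mice that carried a non-targeting short hairpin RNA were measured by RNA sequencing in 4 libraries, which are the control samples among 12 libraries of the series. They were taken as every library labelled shControl, and no other library was used. The series holds 3 groups of 4 libraries, and the other groups carry hairpins against Cldn7, the gene of the tight junction protein claudin 7, whose role in invasion was the stated question. In MMTV-Neu mice the promoter of the mouse mammary tumour virus drives the rat Neu oncogene, the rat form of Erbb2, in mammary epithelium. Per the labels, the cells were primary epithelial cells of the mammary gland, the genotype was given as WT, and the treatment as a non-targeting hairpin. Lentivirus was used at a multiplicity of infection of 20, infected organoids were selected with 3 µg/ml puromycin for 3 days, the medium held 2.5 nM FGF2, and the organoids then spent 5 days in collagen I. The other groups of the series shared the tumour model, the virus dose, the selection, the medium and the collagen. The labels do not say whether the 4 libraries came from separate tumours, mice or cultures, nor give an age or strain, so the spread between libraries may be technical. The libraries are called library 1 to library 4 by the replicate numbers in their titles. Levels are given as CPM, counts per 1000000 counts of the library, and a gene's CPM is its share of the counts, which also grows with the length of its transcript. Ranks and sums in CPM are therefore ranks and sums of counts, and levels of different genes are set against each other as CPM per kb, that is per kilobase of the gene's exons.

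The mammary epithelium has an inner luminal layer, which makes milk under prolactin, and an outer basal layer of contractile myoepithelial cells that rests on a basement membrane. Luminal cells are known by keratins 8, 18 and 19 and by the transcription factors Gata3 and Elf5, and basal cells by keratins 5, 14 and 17 and by Trp63. ERBB2 is a receptor tyrosine kinase with no known ligand of its own. It signals in pairs with EGFR, ERBB3 or ERBB4, which bind ligands of the EGF and neuregulin families. Collagen I is the main fibrillar collagen of the stroma around tumours, and organoids in it can send out invading strands led by cells that express basal keratins.

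Total counts were 36512090, 35803101, 69203486 and 68581024 in libraries 1 to 4, so libraries 3 and 4 were sequenced more deeply. Of 25861 genes in the table, 12365 reached at least 1 CPM in each of the 4 libraries, which is 47.8%. The 10 genes with the highest mean took 7.80%, 7.09%, 9.72% and 6.72% of the counts. Mitochondrially encoded genes took 4.91%, 4.29%, 2.63% and 1.76%. Several of them, among them ATP6, ATP8, COX2 and COX3, belong to the genes described below whose counts were near 0 in libraries 3 and 4. These percentages are therefore shares of counts and not of transcripts. The limit that a count of 0 allows, 3 counts, was 0.0822, 0.0838, 0.0434 and 0.0437 CPM, and it covers counting error only. Among 14048 genes with a mean of at least 1 CPM, 94.8% lay within 2-fold of each other in libraries 1 and 2, and 78.5% to 81.8% did so in each of the other pairs. The highest library was over 4-fold above the lowest for 2294 of these genes, which is 16.3%. That count was 187 between libraries 1 and 2 alone and 896 between libraries 3 and 4 alone. The highest value was in library 1 for 12.5% of the 14048 genes, in library 2 for 16.7%, in library 3 for 29.0% and in library 4 for 41.8%, and the lowest value for 27.5%, 17.1%, 32.8% and 22.6%. Scaling by edgeR's trimmed mean of M-values (TMM) moved the highest shares to 15.4%, 15.4%, 37.6% and 31.6% and the lowest to 22.8%, 19.5%, 26.6% and 31.1%. It shifted log2 levels by 0.05, -0.02, 0.09 and -0.11 in libraries 1 to 4. These shares are the background for the counts given below.

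A group of genes separated libraries 1 and 2 from libraries 3 and 4. Of 4823 genes with a mean of at least 50 CPM, 105 were over 10-fold higher in both shallower libraries than in both deeper ones, and 0 were so the other way. ATP6, a mitochondrially encoded subunit of ATP synthase (NCBI Gene 17705, chromosome M from 7927 to 8607, plus strand, GRCm38), stood at 4885, 4424, 4.003 and 1.46 CPM in libraries 1 to 4. Gapdh, a glycolytic enzyme often used as a reference, stood at 342, 338, 8.47 and 6.75 CPM. In these genes libraries 1 and 2 were close to each other and libraries 3 and 4 were near the low end. The same held for 20 gamma protocadherins, whose transcripts share their last exons. As a measure of shared sequence, 50-base windows of each gene's transcript were looked up in the transcripts of all other genes. Among the 90 of these 105 genes with a value, a median of 66.2% of the windows were also found elsewhere, and 62 genes (68.9%) were over 50%. Among the other 4711 genes with a value the median was 0% and 4.03% of the genes were over 50%. Exceptions included Tmsb4x, the actin-binding thymosin beta 4, which stood at 369.9, 375, 0 and 0 CPM with 0% shared. The mitochondrially encoded ATP8, at 2806, 2674, 0.650 and 0.306 CPM, and Gm11483, at 190, 154, 0 and 0 CPM, also had 0% shared. Counts in the 105 genes made up 5.91%, 5.39%, 0.0575% and 0.0569% of libraries 1 to 4. The sources used here do not give how reads that match several genes were counted in each library, and the part of the counting in these values was not tested. A level near 0 in libraries 3 and 4 for such genes is therefore reported as a count and not as absence of the transcript.

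**Figure D1:**
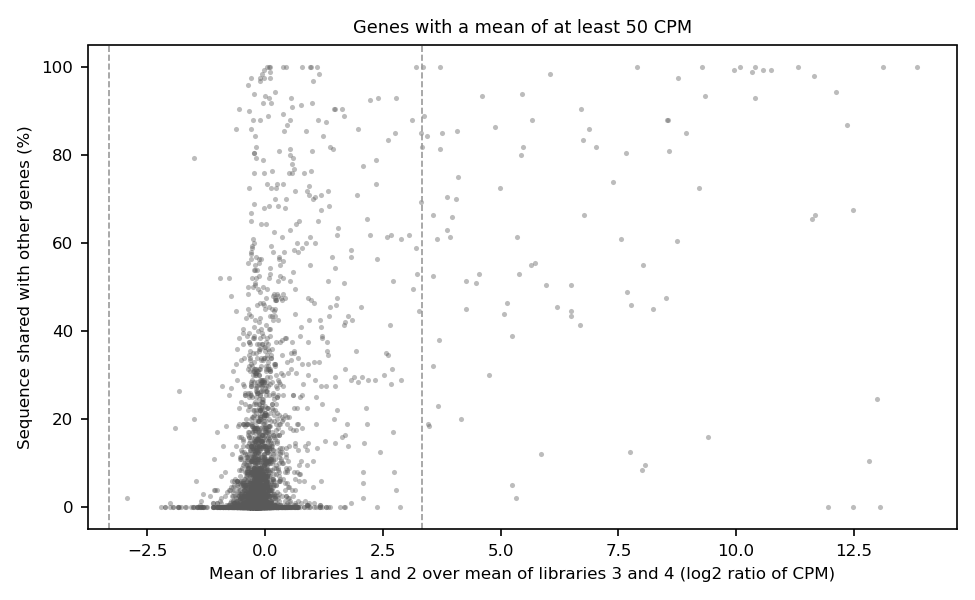
Each point is 1 of the genes averaging 50 CPM or more. The horizontal axis is the log2 ratio of the mean CPM of libraries 1 and 2 to that of libraries 3 and 4, with a value under 3 counts set to 3 counts, and the vertical axis is the percent of the gene's 50-base windows found in transcripts of other genes. Dashed lines mark 10-fold. The points beyond the right line lie mostly high on the vertical axis, and no point lies beyond the left line.

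The genes with the highest CPM included several for secreted mammary proteins, next to genes that every cell uses. Igfbp5, which encodes a secreted binding protein of insulin-like growth factors (NCBI Gene 16011, chromosome 1 from 72857932 to 72874884, minus strand, GRCm38), took the most counts on average, with 10466, 12524, 13919 and 23497 CPM in libraries 1 to 4 and 15101 ± 5774 CPM on average (SD, n = 4). It was within 2.24-fold across the libraries and highest in library 4. Trf, the iron carrier transferrin and a milk protein in rodents (NCBI Gene 22041, chromosome 9 from 103204001 to 103230444, minus strand, GRCm38), stood at 8581, 6038, 36006 and 5770.5 CPM. Library 3 was far above the other libraries, which did not differ from each other by as much, and the mean of 14099 ± 14659 CPM (SD, n = 4) describes none of them. Of the windows of Trf, 79.5% were also found in transcripts of another gene. Spp1, the secreted phosphoprotein osteopontin (NCBI Gene 20750, chromosome 5 from 104435118 to 104441050, plus strand, GRCm38), stood at 8749.6, 8043, 5604 and 4576 CPM, with both shallower libraries above both deeper ones. Mfge8, the milk fat globule protein lactadherin (NCBI Gene 17304, chromosome 7 from 79133768 to 79149060, minus strand, GRCm38), stood at 6851, 4509, 7310.4 and 5931 CPM, and Lcn2, the iron-siderophore binding lipocalin 2 (NCBI Gene 16819, chromosome 2 from 32384633 to 32388252, minus strand, GRCm38), at 2831, 1912, 2417 and 1512 CPM.

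Erbb2 was the 8th gene by mean CPM. The other genes among the leading 30 were mostly those every cell uses. Eef1a1 and Eef2, elongation factors of translation, stood at 7731 ± 1322 CPM and 4889 ± 509 CPM (SD, n = 4). COX1, a mitochondrially encoded subunit of the last respiratory complex, stood at 13291, 11612, 10599.9 and 6747 CPM in libraries 1 to 4, with 51.5% of its windows shared. Rn45s, the precursor of ribosomal RNA, stood at 3353, 3143, 3036 and 1971 CPM. Hsp90ab1, a chaperone, stood at 3350.1 ± 490.4 CPM and Actb, cytoskeletal actin, at 2519.8 ± 228 CPM (SD, n = 4). Neat1, a long non-coding RNA of nuclear paraspeckles, stood at 1837, 2860.3, 1249 and 4347 CPM in libraries 1 to 4 and was lowest in library 3 and highest in library 4. Aldoa, an aldolase of glycolysis, stood at 2139, 1721, 5244 and 1933 CPM, and only library 3 stood apart. Of the 30 genes with the highest mean, 21 to 27 were also among the leading 30 of a given library. Per kb of exon, the order led with COX1, ATP8, Mir5121, Trf, Spp1, CYTB, ATP6, Eef1a1, Mir682 and COX2. Of these, ATP8, Mir5121, ATP6 and COX2 held their place through libraries 1 and 2 alone. COX2, for example, stood at 4410.0, 3518, 3.83 and 2.06 CPM in libraries 1 to 4 and all sampled windows of it were shared. Of the windows of ATP8, 0% were shared. Per kb, Spp1 stood at 4092 ± 1199 CPM per kb, Trf at 4247 ± 4415 CPM per kb, Igfbp5 at 2514 ± 961 CPM per kb and Mfge8 at 1310.3 ± 263 CPM per kb (SD, n = 4).

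**Figure D2:**
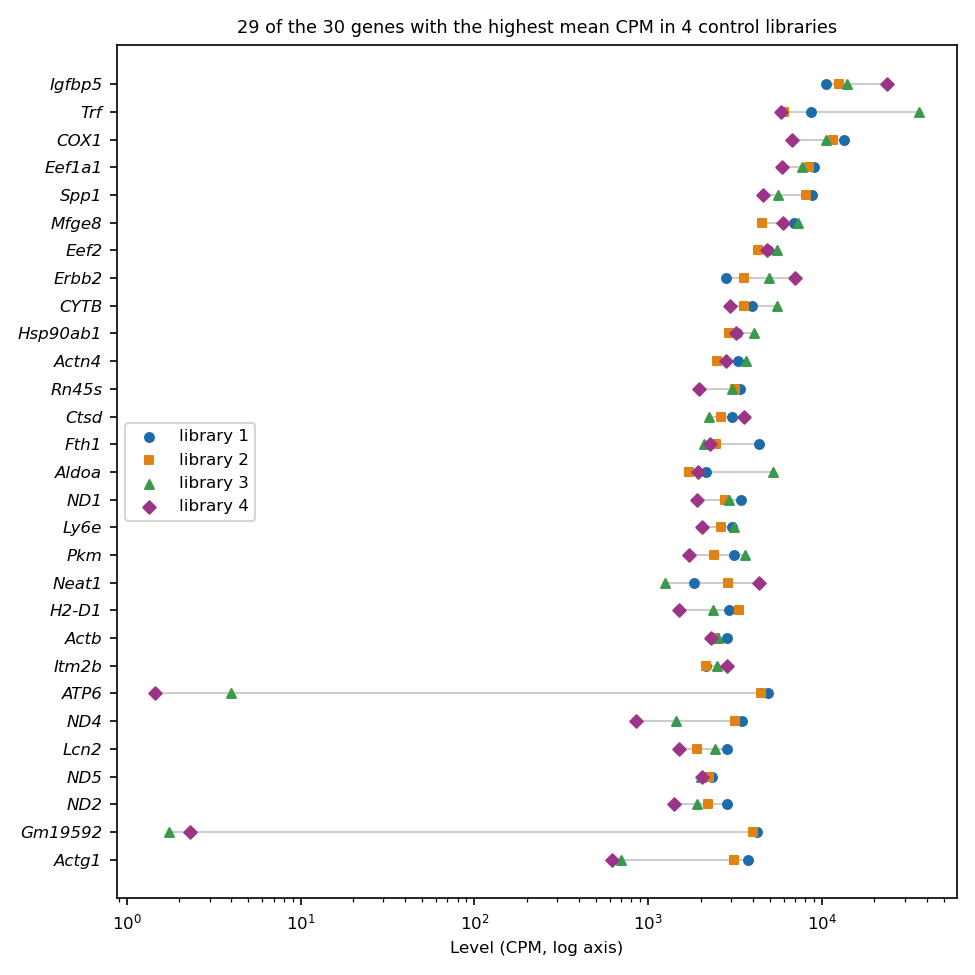
Of the 30 genes with the highest mean level, 29 are shown, from the highest at the top, with CPM on a log axis and 1 symbol for each of the 4 control libraries; the grey line joins the lowest and the highest library. Most genes span less than 3-fold, Trf is far higher in library 3, and ATP6 and Gm19592 lie at 1.46 to 4.003 CPM in libraries 3 and 4.

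The luminal list was the highest of the 5 main lists by its median. It held 31 genes, of which 27 reached 1 CPM in all 4 libraries. Of 28 with a mean of at least 1 CPM, 3 spanned more than 4-fold (background 16.3%). The median level was 41.3 CPM per kb, or 78.8 with the median length of a gene's coding transcripts in place of its exons. The exon-based value stands beside 0.885 CPM per kb over all genes and 6.74 CPM per kb over genes with a mean of at least 1 CPM. Of the keratins that build the filaments of luminal cells, Krt8 (NCBI Gene 16691, chromosome 15 from 101996698 to 102004482, minus strand, GRCm38) stood at 1033, 1133, 1195 and 654 CPM in libraries 1 to 4, and Krt18 (NCBI Gene 16668, chromosome 15 from 102028180 to 102032027, plus strand, GRCm38) at 1112, 1148, 868 and 463 CPM. Both were lowest in library 4, as were 5 of 5 luminal keratins (background 22.6%). Krt19 stood at 125, 341, 168 and 34.8 CPM, highest in library 2 and lowest in library 4. Epcam, an adhesion molecule of epithelial cells, stood at 1173, 1112, 1748 and 1089 CPM and was highest in library 3, and Cdh1, the E-cadherin of adherens junctions, stood at 524 ± 82.2 CPM (SD, n = 4). Cldn7, the gene targeted in the other groups (NCBI Gene 53624, chromosome 11 from 69964779 to 69967885, plus strand, GRCm38), stood at 137, 135, 175 and 108 CPM here. Its relatives Cldn3 and Cldn4 stood at 231, 197, 312 and 150.4 CPM and 52.2, 96.97, 29.1 and 13.4 CPM, and only Cldn4 spanned more than 4-fold.

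Of the luminal transcription factors, Elf5, a factor of the alveolar lineage, stood at 284, 317, 382 and 311 CPM in libraries 1 to 4. Gata3, which keeps cells luminal, stood at 139, 115, 172 and 221 CPM, and Ehf, an epithelial ETS factor, at 203, 271, 319 and 334 CPM. Tfap2c stood at 221, 186, 294 and 194 CPM. None of these spanned more than 2-fold. Foxa1, a factor of hormone-sensing luminal cells, stood at 1.75, 1.341, 2.07 and 4.08 CPM. Of the hormone receptor genes, Esr1, for estrogen, stood at 5.48, 5.64, 4.34 and 6.98 CPM, and Pgr, for progesterone, at 0.246, 1.15, 0.809 and 0.437 CPM. The prolactin receptor gene Prlr stood at 101, 111, 89.1 and 119 CPM. Per kb, Prlr stood at 6.83 ± 0.8401 CPM per kb against 0.411 ± 0.0794 CPM per kb for Esr1 and 0.0772 ± 0.0467 CPM per kb for Pgr (SD, n = 4), and the 4 values of Prlr did not overlap with those of Esr1 or Pgr. Genes linked to luminal progenitors were present throughout. Kit, a receptor tyrosine kinase, stood at 227, 336, 498 and 413 CPM, the retinal dehydrogenase gene Aldh1a3 at 222, 403, 207 and 218 CPM, and Cd14 at 238, 262, 167 and 173 CPM. Aldh1a3 was highest in library 2 and close to equal in the other libraries.

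Basal keratins were expressed next to the luminal ones, at levels that differed more between libraries: the median span from the lowest to the highest library was 9.57-fold for 5 basal keratins and 2.24-fold for 5 luminal ones. Krt5 (NCBI Gene 110308, chromosome 15 from 101707070 to 101712898, minus strand, GRCm38) stood at 447, 1338, 215 and 115 CPM in libraries 1 to 4 and Krt14 (NCBI Gene 16664, chromosome 11 from 100203162 to 100207548, minus strand, GRCm38) at 681, 1588, 350.1 and 458 CPM. Krt17 stood at 222, 348, 46.4 and 36.4 CPM. Library 2 was the highest for 4 of 5 basal keratins (background 16.7%), and the exception was Krt15, at 4.11, 8.83, 14.2 and 5.16 CPM. Krt6a stood at 245, 447, 5.896 and 11.2 CPM, but 61.5% of its windows were shared with other genes. The summed level of Krt5, Krt14 and Krt17 per kb, divided by that of Krt8, Krt18 and Krt19, was 0.536, 1.11, 0.250 and 0.498 in libraries 1 to 4, or 0.599 ± 0.365 (SD, n = 4). Library 2 alone had more basal than luminal keratin by this measure. In bulk RNA, fewer cells of a type and less RNA per cell cannot be told apart.

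The whole basal list held 27 genes, of which 26 reached 1 CPM in all 4 libraries, and its median was 15.1 CPM per kb, or 25.9 with the median length of coding transcripts. Of the 27, 8 spanned more than 4-fold (background 16.3%) and 15 were highest in library 2 (background 16.7%). Trp63, which encodes the basal lineage factor p63, stood at 16.6, 33.5, 14.9 and 20.6 CPM. Sox10, a neural crest factor also used by mammary progenitors, stood at 439, 378, 579 and 570.5 CPM, and Sox9 at 129.5, 186, 178 and 267 CPM. Per kb, Sox10 stood at 161 ± 32.5 CPM per kb and Trp63 at 2.55 ± 1.004 CPM per kb (SD, n = 4). Contractile genes differed among themselves. Acta2, for smooth muscle actin, stood at 99.6, 245, 95.8 and 90.4 CPM, with library 2 alone high, whereas Myh11, for smooth muscle myosin, stood at 4.38, 7.74, 12.9 and 5.42 CPM and Cnn1, for calponin, at 1.698, 4.41, 6.18 and 0.889 CPM. Tagln, for transgelin, stood at 38.5, 91.03, 51.8 and 47.1 CPM, with 48.5% of its windows shared. Oxtr, the oxytocin receptor through which myoepithelium contracts, stood at 137, 72.6, 87.6 and 197 CPM. Of the adhesion genes, the laminin receptor subunits Itga6 and Itgb4 stood at 481, 519, 393 and 705 CPM and 255, 300.1, 192 and 281 CPM. Col17a1, the hemidesmosomal collagen, stood at 113, 322, 76.1 and 67.5 CPM and followed the basal keratins in being highest in library 2. The stem cell receptor gene Lgr5 stood at 3.45, 12.1, 10.8 and 11.5 CPM, lowest in library 1, and its relative Lgr6 at 66.2, 90.7, 64.04 and 192 CPM.

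Milk genes were expressed unevenly: Csn3 and Lalba were high, and Csn2 and Wap, which are abundant in lactating glands, were near 0. The known activator of these genes is STAT5, which prolactin signalling turns on and which binds sites of the form TTCNNNGAA. The windows of 250 bases before the start of transcription are shown for milk genes at either end of the range, to let the letters be set beside the levels. They come from RefSeq on GRCm38.p6, where 5 of 7 milk genes sought were found. Csn3 and Csn1s2b were not among them. Matches to TTCNNNGAA, a motif that reads the same on both strands, are in capitals.
Csn1s1 (chr5:87665958-87666207, plus strand): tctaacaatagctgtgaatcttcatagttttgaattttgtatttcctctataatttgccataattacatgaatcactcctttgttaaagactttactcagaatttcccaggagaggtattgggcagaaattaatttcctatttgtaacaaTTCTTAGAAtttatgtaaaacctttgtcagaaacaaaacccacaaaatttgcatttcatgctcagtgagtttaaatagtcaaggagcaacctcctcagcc
Csn2 (chr5:87699426-87699675, minus strand): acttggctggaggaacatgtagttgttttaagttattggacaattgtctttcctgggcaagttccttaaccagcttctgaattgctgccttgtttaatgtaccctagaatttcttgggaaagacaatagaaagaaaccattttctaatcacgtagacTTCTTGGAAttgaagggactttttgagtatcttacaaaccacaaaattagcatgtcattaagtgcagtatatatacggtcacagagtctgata
Lalba (chr15:98482684-98482933, minus strand): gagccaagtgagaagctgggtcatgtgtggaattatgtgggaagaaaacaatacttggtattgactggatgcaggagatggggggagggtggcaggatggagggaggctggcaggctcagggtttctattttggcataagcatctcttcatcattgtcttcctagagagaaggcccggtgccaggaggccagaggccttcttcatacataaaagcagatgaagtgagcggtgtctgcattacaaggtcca
Wap (chr11:6638650-6638899, minus strand): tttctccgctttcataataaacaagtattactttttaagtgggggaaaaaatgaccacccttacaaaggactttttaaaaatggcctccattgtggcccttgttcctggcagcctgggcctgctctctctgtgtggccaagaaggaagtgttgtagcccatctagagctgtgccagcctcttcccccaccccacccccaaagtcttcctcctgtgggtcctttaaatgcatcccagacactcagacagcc
Csn1s1 held 1 match, whose first base lay 100 bases before the start, and Csn2 held 1 match, 93 bases before it. The windows of Lalba and Wap held 0 matches, as did that of Csn1s2a, which is not shown. Over all 32851 promoter windows of the same length, 7.02% held the motif. A match is a run of letters and not a measured binding site.

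The caseins, the main milk proteins, spanned the range. Csn3, for kappa-casein (NCBI Gene 12994, chromosome 5 from 87925579 to 87932665, plus strand, GRCm38), stood at 1278, 447, 4252 and 301 CPM in libraries 1 to 4. It was highest in library 3, and the libraries spanned 14.1-fold. Csn1s1, for alpha-S1 casein, stood at 132, 126, 25.95 and 75.7 CPM and was lowest in library 3, the opposite end from Csn3. Csn1s2a stood at 0.642 to 1.13 CPM and Csn1s2b at 0.217 to 0.559 CPM. Csn2, for beta-casein, stood at 0.192, 0.0279, 0.0145 and 0 CPM, of which libraries 2, 3 and 4 lay below the limit of 3 counts. The windows of Csn1s1 and Csn2 both held the motif, and the part of the motif in their levels was not tested. Lalba, for the alpha-lactalbumin that makes lactose (NCBI Gene 16770, chromosome 15 from 98480400 to 98482721, minus strand, GRCm38), stood at 175, 139, 768 and 124 CPM, with library 3 high and the others close together. Per kb, Lalba stood at 391 ± 404 CPM per kb and Csn3 at 378 ± 443 CPM per kb (SD, n = 4). Lalba was 0.738 to 2.22 times Csn3 per kb, so their order changed between libraries. Wap, for whey acidic protein, stood at 0.466, 0.1397, 0.434 and 0.175 CPM.

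Of the whey and defence proteins, Wfdc18 stood at 483, 603, 530.0 and 191 CPM, Clu, the chaperone clusterin, at 1211, 1388, 891 and 1375 CPM, and Slpi, a leukocyte protease inhibitor, at 208, 385, 276 and 288 CPM. Ltf, for lactoferrin, stood at 16.2, 61.2, 13.7 and 5.599 CPM, highest in library 2. Of the milk fat genes, Plin2, which coats lipid droplets, stood at 502, 401, 543 and 261 CPM, Fasn, the fatty acid synthase gene, at 269.9, 309, 489 and 318 CPM, and Xdh, needed for fat globule release, at 135, 177, 256.1 and 209 CPM. Btn1a1, whose protein joins it at the globule membrane, stood at 16.05, 45.7, 63.9 and 56.6 CPM. Thrsp, a lipogenic factor, stood at 26.8, 24.998, 149.9 and 36.8 CPM, and Aqp5, a water channel, at 424, 297, 1443 and 354 CPM, and in both only library 3 stood apart. Olah, which ends medium-chain fatty acids in milk, had 4 counts, all in library 4. Of the prolactin pathway genes, Stat5a stood at 28.6, 35.8, 55.4 and 26.5 CPM, Stat5b at 52.3, 56.3, 89.1 and 67.4 CPM, and Socs2, a feedback inhibitor, at 124, 107, 280.2 and 60.002 CPM. All 4 of these regulators, Cish included, were highest in library 3 (background 29.0%). The secretory list as a whole held 38 genes with a median of 13.2 CPM per kb, below the basal and matrix lists. With the median length of coding transcripts its median was 42.4 CPM per kb, above both of those lists. Of its 38 genes, 27 reached 1 CPM in all 4 libraries, and 17 of 28 with a mean of at least 1 CPM were highest in library 3 (background 29.0%). After TMM scaling the count was the same, but the background rose to 37.6%.

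Matrix genes had the widest spans of the 5 main lists, and most were highest in library 4 and lowest in library 3. Of 58 matrix genes 54 reached 1 CPM in all 4 libraries, and the median was 20.7 CPM per kb. Of 57 with a mean of at least 1 CPM, 31 spanned more than 4-fold, against 16.3% of all such genes. Library 4 was the highest for 42 of the 57 (background 41.8%, after TMM scaling 41 of 57 and 31.6%), and library 3 the lowest for 43 (background 32.8%, after TMM scaling 42 of 57 and 26.6%). Fn1, for fibronectin (NCBI Gene 14268, chromosome 1 from 71585520 to 71653200, minus strand, GRCm38), stood at 1204, 1337, 338 and 3354 CPM in libraries 1 to 4. Col1a1 (NCBI Gene 12842, chromosome 11 from 94936224 to 94953042, plus strand, GRCm38) stood at 656, 555, 85.9 and 1480.0 CPM and its partner chain Col1a2 at 543, 423, 61.3 and 1257 CPM. The 2 chains kept close to each other, with Col1a1 at 2.23 to 2.65 times Col1a2 per kb in every library. Col3a1 (NCBI Gene 12825, chromosome 1 from 45311538 to 45349706, plus strand, GRCm38) stood at 125, 30.2, 34.2 and 1144 CPM, and library 4 stood far above the others. Library 4 was highest for 8 of 9 interstitial collagens (background 41.8%). The exception was Col12a1, which stood at 96.3, 243, 71.6 and 217 CPM and was highest in library 2.

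Fibroblast markers were likewise highest in library 4. This held for 8 of 8 with a mean of at least 1 CPM (background 41.8%), and for 7 of 8 after TMM scaling (background 31.6%), where library 3 was highest for the other. The summed level of all 10 was 77.0, 58.8, 38.6 and 289 CPM in libraries 1 to 4. The defining markers Pdgfra, Lum and Dcn stood at 26.2, 22.3, 18.3 and 80.3 CPM, 18.7, 6.12, 1.36 and 84.6 CPM and 13.7, 14.7, 0.968 and 60.3 CPM, and none was at 0 in any library. The part of fibroblasts in the matrix levels was not tested.

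Basement membrane genes were steadier than the interstitial collagens, with a median span of 2.42-fold against 17.2-fold. Of the 14 basement membrane genes 3 spanned more than 4-fold (background 16.3%). Col4a1, a chain of collagen IV, stood at 212, 261, 212 and 537 CPM, with library 4 alone high. The laminin chain genes Lama3 and Lamb3 of epithelium stood at 92.4 ± 40.7 CPM and 405 ± 63.02 CPM (SD, n = 4). Neither spanned more than 4-fold. Agrn, for the proteoglycan agrin, stood at 533, 849, 648 and 1166 CPM. Of the matricellular proteins, Postn, for periostin, stood at 629, 1664, 570.2 and 2437 CPM, Thbs1, for thrombospondin 1, at 960.0, 1308, 891 and 1543 CPM, Tnc, for tenascin C, at 317, 322, 125 and 686 CPM, and Sparc at 384, 645, 94.7 and 572 CPM. All 7 genes of this role were lowest in library 3 (background 32.8%). Among proteases, the collagenase gene Mmp13 stood at 53.4, 53.9, 5.000 and 213 CPM, the gelatinase gene Mmp2 at 149, 137, 73.9 and 605 CPM, and the membrane-bound Mmp14, which activates it, at 139, 159, 93.3 and 401 CPM. Mmp15 stood at 154, 150.1, 371 and 225 CPM and had its highest value in library 3. The protease inhibitor gene Timp2 stood at 198, 239, 119 and 625 CPM. Among receptors, Itgb1, the shared chain of collagen-binding integrins, was steady at 1004 ± 86.1 CPM (SD, n = 4). The collagen receptor tyrosine kinase genes Ddr1, of epithelium, and Ddr2, of mesenchyme, stood at 277, 299.9, 319.7 and 424 CPM and 23.1, 9.19, 4.32 and 88.7 CPM. Only Ddr2 spanned more than 4-fold.

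**Figure D3:**
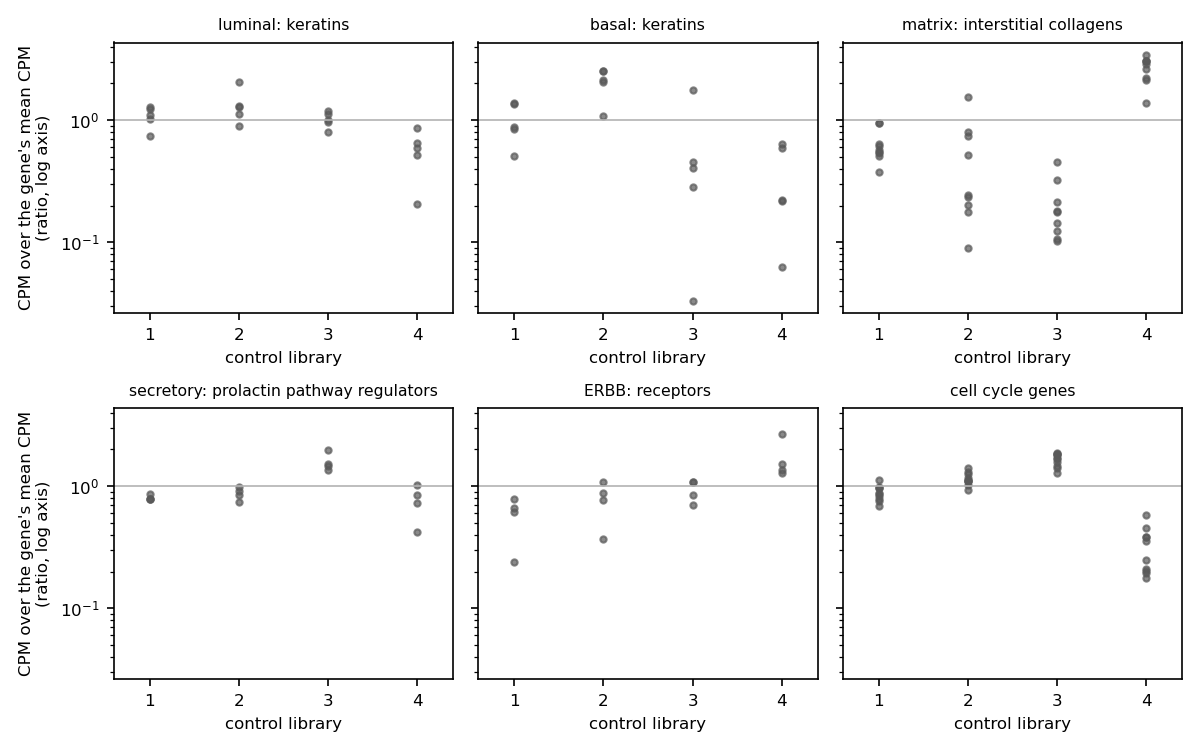
Each point is 1 gene in 1 control library, as its CPM divided by that gene's mean CPM over the 4 libraries, on a log axis; the grey line marks the mean. Basal keratins are mostly highest in library 2, prolactin pathway regulators and cell cycle genes in library 3, and interstitial collagens and ERBB receptors in library 4.

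Erbb2 was by far the highest of the ERBB receptor and ligand genes. The table has 1 row for it, so reads of mouse Erbb2 and of the rat Neu transgene cannot be told apart. Erbb2 (NCBI Gene 13866, chromosome 11 from 98412470 to 98437716, plus strand, GRCm38) stood at 2816, 3546, 4959 and 6967 CPM in libraries 1 to 4, or 4572 ± 1828 CPM (SD, n = 4). Library 4 was 2.47 times library 1. Erbb3, which binds neuregulins but has little kinase activity (NCBI Gene 13867, chromosome 10 from 128567523 to 128589652, minus strand, GRCm38), stood at 115, 151, 187 and 233 CPM. Egfr (NCBI Gene 13649, chromosome 11 from 16752203 to 16918158, plus strand, GRCm38) stood at 64.4, 88.1, 69.5 and 104 CPM, and Erbb4 at 0.383, 0.587, 1.11 and 4.26 CPM. All 4 receptor genes were highest in library 4 (background 41.8%) and lowest in library 1 (background 27.5%), also after TMM scaling. Per kb, Erbb2 stood at 878 ± 351 CPM per kb, Erbb3 at 28.5 ± 8.38 CPM per kb, Egfr at 7.19 ± 1.598 CPM per kb and Erbb4 at 0.128 ± 0.146 CPM per kb (SD, n = 4). Erbb2 was 27.1 to 34.6 times Erbb3 and 87.5 to 155 times Egfr in a given library.

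The genes that flank Erbb2 on chromosome 11 did not reach its level. Grb7, an adaptor gene that lies near it, stood at 38.7, 42.99, 37.9 and 39.1 CPM in libraries 1 to 4, Stard3 at 35.7, 36.8, 38.00 and 41.4 CPM and Pgap3 at 26.5, 25.8, 33.6 and 37.8 CPM. They stayed nearly level while Erbb2 differed by 2.47-fold. Per kb, Erbb2 was 47.0 to 115 times Grb7, 53.8 to 115 times Stard3 and 66.2 to 115 times Pgap3. Mien1, a short gene next to it, stood at 79.2, 60.3, 109.5 and 70.5 CPM, and Erbb2 was 5.10 to 14.2 times Mien1 per kb.

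Ligand genes were low beside the receptors Erbb2 and Erbb3. Of the EGFR ligands, Tgfa stood at 41.8, 34.2, 65.3 and 25.01 CPM in libraries 1 to 4, Areg, for amphiregulin, at 10.4, 10.4, 2.86 and 2.304 CPM, and Hbegf at 12.2, 9.496, 10.5 and 15.2 CPM. Btc, for betacellulin, stood at 9.91, 12.8, 12.7 and 15.7 CPM, and Egf at 1.01, 1.37, 3.51 and 1.92 CPM. Areg, Epgn and Nrg4 were higher in libraries 1 and 2 than in libraries 3 and 4, and Epgn stood at 5.75, 5.25, 1.75 and 0.656 CPM. Of the neuregulins, Nrg1 stood at 2.36, 2.93, 2.96 and 3.44 CPM, Nrg2 at 3.94, 3.07, 10.04 and 2.83 CPM and Nrg4 at 11.1, 12.7, 0.838 and 1.81 CPM, whereas Nrg3 had 1 count, in library 4. Per kb, the order from the highest was Erbb2, Erbb3, Egfr, Tgfa, Areg, Btc, Hbegf, Epgn, Nrg2, Nrg4, Ereg, Nrg1, Egf, Erbb4 and Nrg3. Of the 14 pairs of neighbours in this order, 3 kept it in 4 of 4 libraries, namely Erbb2 over Erbb3, Erbb3 over Egfr and Erbb4 over Nrg3. Neighbours from Egfr to Erbb4 therefore did not differ beyond their spread over libraries. That number was 11 in libraries 1 and 2 alone and 6 in libraries 3 and 4 alone.

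**Figure D4:**
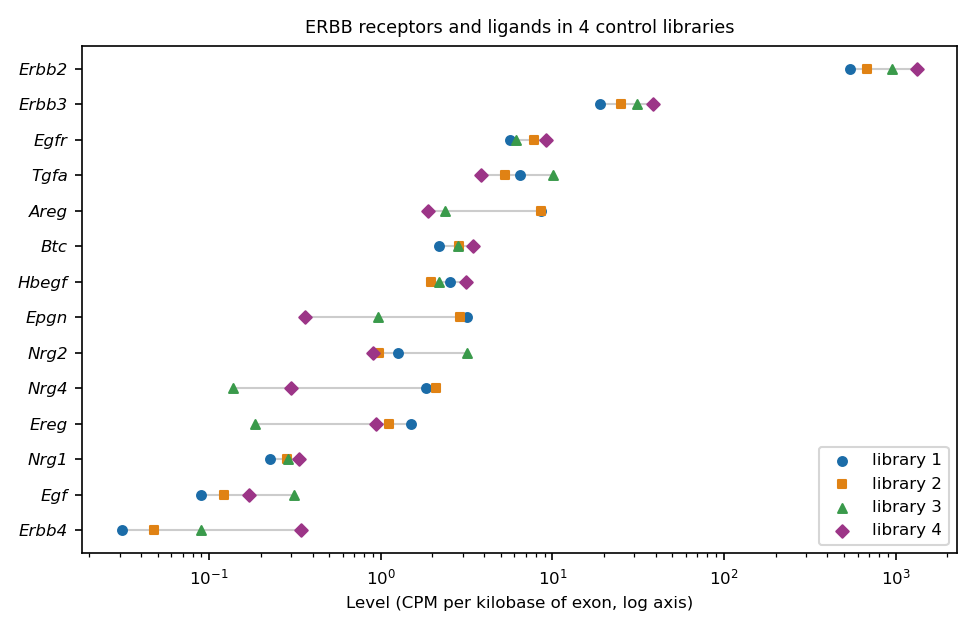
ERBB receptor and ligand genes from the highest mean at the top, as CPM per kb of exon on a log axis, with 1 symbol for each of the 4 control libraries and a grey line from the lowest to the highest; Nrg3, with 1 count in all, is left out. Erbb2 and Erbb3 stand apart from each other and from the rest, and the ligands overlap.

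Adaptors of the ERBB pathway had a median span of 1.28-fold and shedding proteases 1.45-fold, below the 1.66-fold of all genes with a mean of at least 1 CPM. Inhibitors, with 2.00-fold, and output genes, with 2.31-fold, were above it. The adaptor gene Grb2 stood at 86.98, 81.7, 77.1 and 88.8 CPM in libraries 1 to 4 and Shc1 at 137, 142, 122 and 156 CPM. The protease genes Adam10 and Adam17, which release ERBB ligands, stood at 200.3, 201, 130.2 and 228 CPM and 108, 114, 112 and 123 CPM. Errfi1, whose protein blocks the kinases of the family, stood at 165, 152, 189 and 172 CPM, and Lrig1, which promotes receptor loss, at 181, 228, 175 and 350.0 CPM. Of the 12 genes of the adaptor, protease and inhibitor roles, and of the 8 output genes, 0 spanned more than 4-fold (background 16.3%). The ERK phosphatase gene Dusp6 stood at 178, 172, 461 and 143 CPM, with library 3 alone high. The ETS factor gene Etv5 stood at 253, 179, 301 and 152 CPM, the cyclin gene Ccnd1 at 249, 271, 320.1 and 118 CPM and Myc at 33.3, 38.96, 57.6 and 21.8 CPM. Of 8 output and feedback genes, 6 were highest in library 3 (background 29.0%) and 2 in library 4 (background 41.8%). Library 4 was the lowest for 5 of the 8 (background 22.6%). After TMM scaling these counts were the same, with backgrounds of 37.6%, 31.6% and 31.1%. A link between these genes and the receptor genes was not tested. The ERBB list of 35 genes had a median of 7.19 CPM per kb, or 13.6 with the median length of coding transcripts. By exon length, genes with a mean of at least 1 CPM had a median of 6.74 CPM per kb. Of the list, 30 genes reached 1 CPM in all 4 libraries and 5 of 34 spanned more than 4-fold, which is near the background of 16.3%.

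The medium held FGF2, and of its receptor genes Fgfr1 stood at 527, 506, 649 and 967 CPM in libraries 1 to 4, Fgfr2 at 9.12, 34.8, 13.9 and 25.2 CPM, Fgfr3 at 4.52, 3.27, 2.83 and 2.49 CPM and Fgfr4 at 0.0822, 0.0559, 0.116 and 0.408 CPM. Per kb, Fgfr1 stood at 67.1 ± 21.5 CPM per kb, above Fgfr2 at 2.01 ± 1.12 CPM per kb (SD, n = 4), in every library. Cell cycle genes separated libraries 3 and 4. The proliferation antigen gene Mki67 stood at 69.9, 116, 153 and 18.8 CPM and Top2a, a topoisomerase of dividing cells, at 57.7, 89.7, 139 and 19.1 CPM. Of 10 such genes, 9 were highest in library 3 (background 29.0%, 10 of 10 after TMM scaling) and 10 lowest in library 4 (background 22.6%, after TMM scaling 31.1%). Of genes of the mesenchymal state, library 4 was highest for 8 of 8 (background 41.8%). Vim, for vimentin, stood at 232, 157, 148 and 306 CPM, Zeb1 at 6.93, 2.93, 1.56 and 24.9 CPM, Twist1 at 1.94, 0.922, 0.578 and 9.39 CPM and Prrx1 at 11.9, 3.55, 3.35 and 45.5 CPM. The same library was highest for the fibroblast markers, and their part in these values was not tested.

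Luminal genes were well above the markers of 8 other cell types by median level, and erythroid markers were the exception in libraries 1 and 2. Per kb, the median was 41.3 CPM for the luminal list, against 1.47 for fibroblast markers, 1.33 for pericyte markers, 0.156 for endothelial markers and 0.289 for macrophage markers, and it was 0.0906 to 1.58 for the lymphocyte, adipocyte, neural and muscle markers. The 4 erythroid markers had a median of 306, 178, 0 and 0 CPM per kb in libraries 1 to 4, or 121 over the means. The summed level of 13 macrophage markers was 133, 62.8, 4.61 and 4.08 CPM in libraries 1 to 4. Lyz2, a lysozyme gene that gave most of this sum in libraries 1 and 2, stood at 89.4, 37.1, 0.0145 and 0.204 CPM, and the pan-leukocyte gene Ptprc at 8.76, 4.52, 0 and 0.0437 CPM. C1qb and C1qc, complement genes of macrophages, were at 0 in both deeper libraries. The summed level of 8 lymphocyte markers was 6.27, 3.66, 0.0434 and 0.554 CPM, and Cd8a and Nkg7 were likewise at 0 in libraries 3 and 4. The summed level of 4 erythroid markers was 781, 451, 1.99 and 0.919 CPM. Of these, Hba-a1, Hba-a2 and Hbb-bs, globin genes with near-identical copies, had 0 counts in libraries 3 and 4, and 67.5% of the windows of Hba-a1 were shared. Alas2, a haem enzyme gene of red cells with 14% shared, stood at 3.97, 3.24, 1.99 and 0.919 CPM. Ptprc had 0% of its windows shared, and the part of the counting in the leukocyte values was not tested.

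Pericyte markers summed to 196, 270, 214 and 451 CPM, mostly through Notch3, at 119.6, 157, 158 and 189 CPM, and Mcam, at 42.2, 91.2, 33.9 and 88.5 CPM. The defining pericyte gene Rgs5 stood at 0.356, 0.447, 0.621 and 0.758 CPM and Pdgfrb at 18.4, 7.21, 10.1 and 131 CPM. Endothelial markers summed to 7.70, 8.66, 3.35 and 6.53 CPM, adipocyte markers to 6.11, 3.44, 2.01 and 5.13 CPM, and skeletal muscle markers to 53.8, 38.6, 12.1 and 24.4 CPM. Endothelial Cdh5 was at 0 in library 3, and Pecam1 stood at 1.81, 2.598, 0.881 and 0.846 CPM. The adipocyte gene Adipoq was at 0 in libraries 3 and 4. Pparg made up most of the adipocyte sum, at 3.86, 2.09, 1.76 and 4.199 CPM in libraries 1 to 4. Of the muscle markers, Acta1 made up most of the sum, at 35.6, 19.9, 10.4 and 15.7 CPM. Acta1 and Ckm were highest in library 1 and Myh4 in library 2. Tnnt3 and the muscle factor gene Myod1 were highest in library 4, and Myod1 was at 0 in libraries 1 and 2. Schwann and neural markers summed to 46.7, 59.3, 51.5 and 70.05 CPM, of which Mbp, for myelin basic protein, made up most at 40.1, 45.9, 44.2 and 45.6 CPM.

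**Figure D5:**
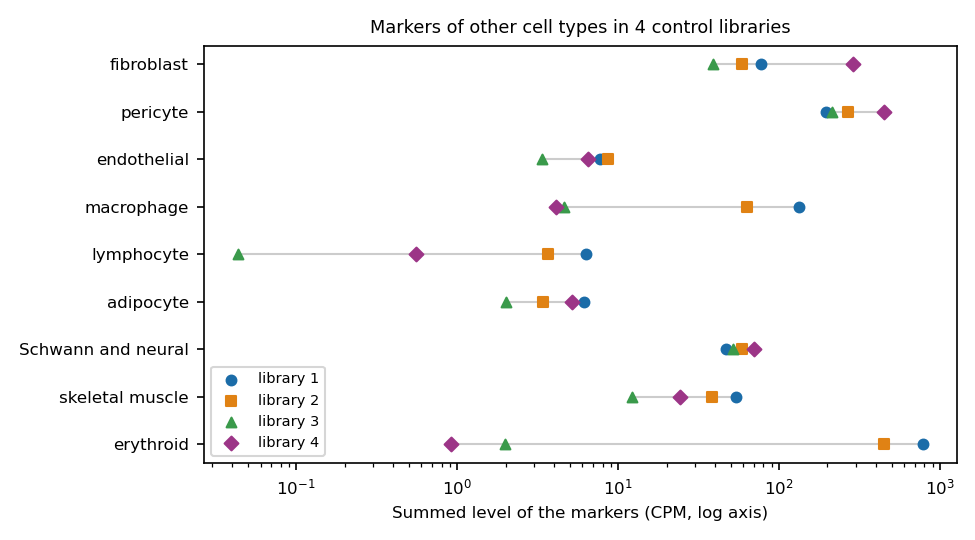
Summed CPM of the markers of 9 other cell types on a log axis, with 1 symbol for each of the 4 control libraries and a grey line from the lowest to the highest. Macrophage, lymphocyte and erythroid markers are far lower in libraries 3 and 4, and fibroblast markers are highest in library 4.

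Some abundant genes with little shared sequence also spanned widely. Of 283 genes with a mean of at least 50 CPM and a span over 4-fold, 91 had 5% or less of shared sequence. Library 4 was the highest for 45 of the 91, which is 49.5% (background 41.8%), and library 3 for 25, which is 27.5% (background 29.0%). Library 3 was the lowest for 43, which is 47.3% (background 32.8%). They included A2m, for the protease trap alpha-2-macroglobulin, at 57.3, 0.391, 126 and 60.1 CPM in libraries 1 to 4, Bgn, for the matrix proteoglycan biglycan, at 256.1, 125, 85.2 and 909 CPM, and Col9a1, a chain of collagen IX, at 173, 128, 1134 and 89.8 CPM. These 3 were chosen after their values were seen. Library 2 stood apart in A2m, library 4 in Bgn and library 3 in Col9a1. At the other end, the 10 steadiest genes with a mean of at least 50 CPM included Cog4, a subunit of a Golgi tethering complex, at 86.5, 85.9, 86.4 and 86.1 CPM, and Khdrbs1, for an RNA-binding protein, at 136, 135, 138 and 135 CPM.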

How the data were processed

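The data were raw read counts per gene in 4 control libraries, deposited by the authors in 1 table with an NCBI Gene number and symbol for each row, with no normalization. The build mm10 and the tools Trimmomatic 0.39, FastQC 0.74 and DESeq2 1.34.0 are listed, with no roles, in the submitters' processing notes. The aligner, the annotation, the strand setting and the treatment of reads that match several genes: not given in the sources used here. Counts of overlapping genes or close copies may thus have been split or lost.

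The members and the gene lists were chosen with earlier results of these data known. All 25861 genes were kept, counts were divided by the library total to give CPM, and CPM was divided by the union exon length from GENCODE M21 (GRCm38, the assembly also called mm10) for CPM per kb. Lengths were found for all but 698 genes, by NCBI number for 21584 and by symbol for 3579. The 18 lists held 285 genes, of which 284 were in the table, and 172 genes were named by a rule. The rule took the 30 highest by mean CPM, the 10 highest per kb, Cldn7, and every ERBB receptor and ligand. It also took a set of defining genes and the 4 highest per kb of each role in the 5 main lists. Last were the 10 widest and 10 narrowest spans among genes averaging 50 CPM or more. Further list members were named after their values were seen, and a few genes are not reported here.

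With 1 group there was no contrast and no test between groups, and every error is the SD over 4 libraries. Dixon's test marked values in which 1 library lay apart from the other 3. Counting error was not compared with this spread gene by gene. At totals of 35803101 to 69203486 it is small for abundant genes that differ widely between libraries. For the steadiest genes and for genes with few counts it may equal or exceed the SD. As a check only for 1 library sequenced more than once, chi-square was divided by degrees of freedom pair by pair. It ran from 41.0 to 479.7, where such repeats, if counted in the same way, would give about 1. The check cannot detect 1 library whose reads were counted in different ways. It also does not show that the libraries are biological replicates. A span is the highest over the lowest library, with values under 3 counts set to 3 counts. Shared sequence is the percent of up to 200 windows of 50 bases in the longest coding transcript that also occur, on either strand, in a GENCODE M21 transcript of another gene. Alternatives were edgeR 4.0.16 TMM factors and DESeq2 1.42.0 size factors over the control libraries, other thresholds and gene lengths, and leaving out each library. The counting of wide spans was run on simulated data as a check of the calculation only. The simulated libraries differed far less from each other than these do. Python 3.11.15 with pandas 2.3.3 and R 4.3.3 were used.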

Additional observations from a re-analysis of the deposited data

Results flagged for a closer look

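Each of 189 values, namely named genes and summed markers and shares, was tested for 1 library that stood apart from the other 3 by Dixon's test at the 95% level. Chance marks about 1 in 20 of values that are independent and normally distributed. These values were not independent, and some genes were named for their spans in these same libraries. The 21 values that were marked are therefore not compared with that rate. Library 3 was the high one for 8 of them: Trf at 36006 CPM, Aldoa at 5244 CPM, Epcam at 1748 CPM, Aqp5 at 1443 CPM, Lalba at 768 CPM, Dusp6 at 461 CPM, Thrsp at 149.9 CPM and Nrg2 at 10.04 CPM. In Trf the other libraries lay between 5770.5 and 8581 CPM.

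Library 4 was the high one for 6: Col3a1 at 1144 CPM, Mmp2 at 605 CPM, Col4a1 at 537 CPM, Col6a1 at 265 CPM, the summed fibroblast markers at 289 CPM, and Nrg3 at 0.0146 CPM, which is 1 count. In Col3a1 the other libraries lay between 30.2 and 125 CPM.

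Library 2 was high for Aldh1a3 at 403 CPM and Acta2 at 245 CPM and low for Tfip11 at 74.4 CPM. Library 1 was high for Fth1 at 4327 CPM, Coro1b at 200.0 CPM and Csn2 at 0.192 CPM and low for Lgr5 at 3.45 CPM. Tfip11 and Coro1b are among the 10 steadiest genes, and their differences were small: the other libraries lay between 77.4 and 77.7 CPM for Tfip11 and between 193 and 194 CPM for Coro1b. Counting error was not set against these differences.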

How the results depend on the processing

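No paired analysis was possible because only 1 group was described and its results come from no test, so there was no contrast in which a replicate block could be fitted. TMM and DESeq2 size factor scaling moved no count or list median by more than the limits set (1.5 times for counts, 1 SD for values), and 343 mean levels of named genes under these scalings stayed within 1 SD. The exception was Cog4, at 86.8 CPM with DESeq2 size factors, whose SD is only 0.298 CPM. Because these scalings shifted log2 levels only by -0.11 to 0.09, the mean of a gene with a large SD could hardly move by 1 SD.

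The count of genes with a span over 4-fold (2294) was 811 at a mean of at least 10 CPM, 4976 with no filter, 187 in libraries 1 and 2 alone and 896 in libraries 3 and 4 alone. With the longest transcript as length, the median was 63.0 CPM per kb for the luminal list and 9.18 for the ERBB list, and 5 ERBB neighbours kept their order in every library. With the median length of coding transcripts, chosen after seeing the data, as were the splits by depth, the medians were 78.8 (luminal), 25.9 (basal), 42.4 (secretory) and 13.6 (ERBB) CPM per kb. The secretory list thus went from below the matrix and basal lists to above both, with the matrix list at 28.7.

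In libraries 1 and 2 alone the medians were 11.5 (basal) and 8.58 (ERBB) CPM per kb, and 11 ERBB neighbours kept their order. In libraries 3 and 4 alone the medians were 49.3 (luminal) and 10.3 (basal) CPM per kb, and 6 neighbours did. Fewer libraries leave fewer chances for an order to break. Leaving out 1 library at a time gave 10.7 to 17.0 CPM per kb for the basal list, 10.4 to 13.5 for the secretory list, and 3 to 7 ERBB neighbours, with 5 without library 1 and 7 without library 3. The summed fibroblast markers, 116 CPM on average, were 58.2 CPM without library 4. Without library 1 the summed erythroid markers went from 309 to 151 CPM, the macrophage markers from 51.2 to 23.8 CPM and the lymphocyte markers from 2.63 to 1.42 CPM. Leaving out 1 library moved the mean of 43 of 172 named genes by over 1.5 times: 12 without library 1, 9 without library 2, 6 without library 3 and 16 without library 4. Without library 4, Col3a1 went from 333 to 63.2 CPM, without library 3 Csn3 from 1569 to 675 CPM and Trf from 14099 to 6797 CPM, and without library 2 Krt5 from 528 to 259 CPM. Depth sets the limit of 3 counts at 0.0434 to 0.0838 CPM, below which levels such as those of Csn2 and Nrg3 cannot be ordered.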
